A study of Mus musculus with 3 samples.

Results

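Genes of the cell division cycle and of DNA replication were examined on 3 Agilent arrays that each carried RNA in both colours, from the dorsal cortex of pups killed on postnatal day 4. The 50 genes were taken from a fixed list of 13 G1 regulators, 17 S phase genes and 20 mitotic genes. Every non-control probe carrying a symbol from that list was used, which gave 67 of the 55681 probes on the array. Each array compared RNA from 1 wild-type pup, labelled with Cy3, with RNA from 1 Brpf1-deficient pup, labelled with Cy5. The labels number the pairs 1 to 3. They state no allele, Cre driver, strain, sex or litter for either group, so it is not known here which cortical cells had lost Brpf1. They also state that the pups received no treatment. Nothing states that the pairs came from separate litters, so the p-values measure only the spread between these samples.

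A cell that is about to divide passes from G1 into S phase, where DNA is copied, and then through G2 into mitosis. D-type cyclins with Cdk4 and Cdk6, and then E-type cyclins with Cdk2, phosphorylate the retinoblastoma proteins Rb1 and Rbl1, which frees E2F transcription factors to switch on replication genes. The MCM helicase, loaded by Orc1, Cdc6 and Cdt1 and restrained by geminin (Gmnn), then opens the DNA for the polymerases. Mitotic genes such as Ccnb1, Cdk1 and Plk1 are switched on later, largely through CCAAT boxes and the CHR element of their promoters. By this age most cortical neurons have left the cycle, and dividing cells are mainly glial precursors and remaining progenitors. In RNA from whole tissue, fewer dividing cells and less RNA per dividing cell cannot be told apart.

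Brpf1 itself, a scaffold of histone acetyltransferase complexes, was brighter in Cy5 on all 3 arrays, where its log2 ratio (Cy5 over Cy3) was 0.63, 0.73 and 0.96. This goes against the label of that channel. No label says which stretch of the gene was deleted, and a probe outside it would check nothing. The authors' deposited table, whose direction is not stated, gives Brpf1 a log fold change of -0.80. Of 52 probes of the cell cycle genes in that table, 50 have the opposite sign there, and the 2 exceptions, of Ccne2 and Aurkb, were not above background here. Values below are therefore given by channel: a log2 ratio above 0 marks a brighter Cy5 signal, the library labelled Brpf1-deficient, and which genotype a direction belongs to is not settled. All arrays lay on 1 slide and came from 1 scan, and no dye swap was made, so dye and genotype cannot be told apart for any gene. In a given channel 57.9% to 61.0% of spots other than controls exceeded background clearly, and no spot was saturated. Of 12 markers of dorsal cortical neurons, 11 were well above background in both channels on all arrays. The exception was Emx1, a cortical selector gene, with log2 ratios of 0.65, -2.72 and -2.65, so that array 1 differed in sign from the others.

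Promoter sequences were searched for elements known from cell cycle genes. The 250 bases before the annotated start were read from RefSeq (GRCm38.p6) for 32 of the 50 genes, those with an entry within 50 bases of the gene's outermost start. A further 8 had an entry only deeper inside the gene, E2f1 and Pola1 among them, and are not shown. Motifs were counted in the whole window. Both strands were searched for the E2F motif TTTNNCGC, with each N limited to C or G, for CCAAT and for the CHR motif TTTGAA. Matches of one motif may overlap those of another. The E2F motif was found in 6 of the 32 promoters (18.8%), against 1.87% of 32536 distinct promoters in the table. CCAAT was found in 24 of 32 (75%), against 33.8%, and CHR in 9 of 32 (28.1%), against 15.8%. The larger set was not limited in the same way. It holds every distinct window, including starts deeper inside genes and several starts of a gene. By group, the E2F motif was in 3 of 7 G1, 2 of 10 S phase and 1 of 15 mitotic promoters. CCAAT was in 3 of 7 G1, 8 of 10 S phase and 13 of 15 mitotic promoters. CHR was in 1 of 7 G1, 1 of 10 S phase and 7 of 15 mitotic promoters. A match is a description of the letters and not a known site. Below, 4 promoters are shown 5′ to 3′ on the gene's strand with matches in capitals. Mcm5 and Ube2c were called brighter in Cy5 and Prim1 in Cy3, and Mcm6 is added as the promoter with the most E2F matches, 3. Ccne1, also called brighter in Cy5, had a window without a match to any of these motifs and is not shown. The Mcm5 sequence, of 209 bases, stops at the gene's outermost start.
Mcm5, chr8:75109259-75109467, plus strand: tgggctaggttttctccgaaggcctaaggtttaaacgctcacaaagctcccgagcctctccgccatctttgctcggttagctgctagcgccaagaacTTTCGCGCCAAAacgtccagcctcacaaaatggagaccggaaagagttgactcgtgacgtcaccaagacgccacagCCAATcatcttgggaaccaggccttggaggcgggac
Prim1, chr10:128014965-128015214, plus strand: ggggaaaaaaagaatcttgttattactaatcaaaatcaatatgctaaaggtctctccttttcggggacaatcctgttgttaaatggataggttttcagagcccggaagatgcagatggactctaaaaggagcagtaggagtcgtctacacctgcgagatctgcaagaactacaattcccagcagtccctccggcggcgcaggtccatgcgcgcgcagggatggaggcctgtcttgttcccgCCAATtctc
Ube2c, chr2:164769679-164769928, plus strand: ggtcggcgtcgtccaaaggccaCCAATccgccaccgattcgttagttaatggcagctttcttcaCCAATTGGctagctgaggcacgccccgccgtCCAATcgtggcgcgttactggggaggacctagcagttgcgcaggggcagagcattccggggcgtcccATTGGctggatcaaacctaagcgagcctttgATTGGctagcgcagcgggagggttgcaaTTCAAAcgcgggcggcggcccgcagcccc
Mcm6, chr1:128359706-128359955, minus strand: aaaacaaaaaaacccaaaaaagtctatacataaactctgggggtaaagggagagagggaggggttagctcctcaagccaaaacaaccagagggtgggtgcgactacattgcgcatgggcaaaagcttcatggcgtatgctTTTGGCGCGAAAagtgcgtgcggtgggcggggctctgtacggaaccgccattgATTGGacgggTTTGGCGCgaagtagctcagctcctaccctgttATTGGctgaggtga
In Mcm5 and Mcm6 the run of 12 capitals is a pair of overlapping E2F matches, one on each strand. The Ube2c promoter, of a mitotic gene, holds 6 CCAAT matches and 1 CHR match, which reads TTCAAA on this strand. The Prim1 window holds 1 CCAAT match, next to the start, and no E2F match by these letters. 
Among the 50 genes, 48 passed the filter, which asked for a signal well above background in either channel on 2 or more arrays. The 2 that did not were Ccne2, an E-type cyclin, and Aurkb, a mitotic kinase, whose probes were above background in neither channel on any array. Of the 48, 45 were well above background in both channels on all 3 arrays, and the others were Orc1, Cdc6 and Cenpf. Fitted over all 23231 genes with limma, 6 of the 48 were brighter in Cy5 and 3 in Cy3 at an adjusted p of 0.05, and 39 did not pass. That is 12.5% and 6.25%, against 7.97% and 9.17% of all genes. Here and below, all genes include sequences on the array without a gene symbol, each counted as a gene. Taken in either direction, 18.8% of the 48 passed, against 17.1% of all genes, a share near the background. At an unadjusted p under 0.05 there were 13 towards Cy5 and 6 towards Cy3. The calls moved with single arrays: without array 3 E2f1 alone passed, without array 1 E2f1, Ccne1, Pola1 and Prim1 passed, and without array 2 Ccnd2, Rb1, Mcm5 and Prim1 lost their call. Median centring gave 13 calls in Cy5 and 0 in Cy3, and 83.4% of all called genes then lay in Cy5, against 46.5% after loess. None of the 48 differed by 2-fold, and 10 had a log2 ratio of at least 0.3 in size. The 95% confidence interval of a log2 ratio had a half-width between 0.16 and 0.30, with a median of 0.18. The probes' mean log2 intensity lay between 7.41 and 14.71, below the range over 16 where probes in general leaned to Cy5.

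**Figure D1:**
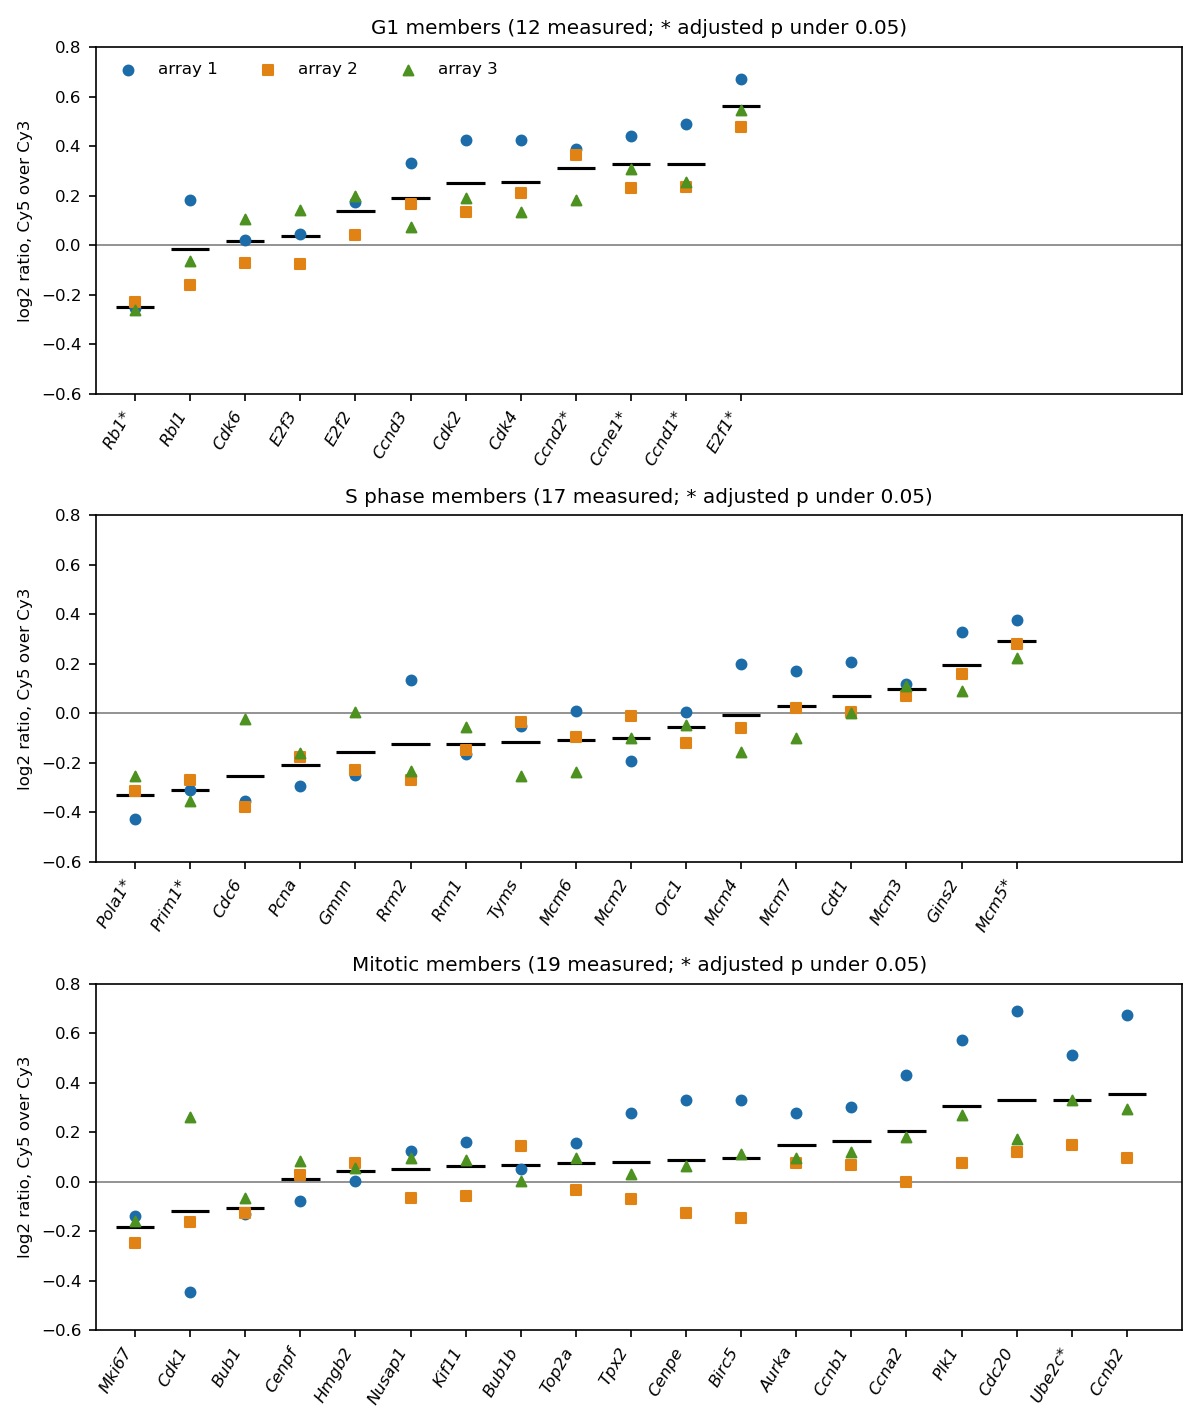
Log2 ratio of Cy5 over Cy3 on each array (points: arrays 1 to 3) and its mean (bars) for the 12 G1, 17 S phase and 19 mitotic genes measured, ordered by mean within each panel; an asterisk marks a limma adjusted p under 0.05. E2f1 stands highest at a mean of 0.56, and array 1 is the highest point for 14 of the 19 mitotic genes.

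Of 12 G1 genes measured, 4 had more signal in Cy5, 1 in Cy3 and 7 did not pass. Those called made up 41.7% of the 12, against 17.1% of all genes. The transcription factor gene E2f1, which drives entry into S phase, had normalised intensities of 1454 in Cy3 and 2313 in Cy5 on array 1. On array 2 they were 1126 and 1568, and on array 3 they were 1073 and 1564. Every Cy5 value of E2f1 lay above every Cy3 value. Here and below, such separation was examined only in called genes, and its share over all genes was not counted. Its log2 ratios of 0.67, 0.48 and 0.54 gave a mean of 0.56 ± 0.098 (SD, n = 3 arrays), a 1.48-fold difference (95% interval of the log2 ratio 0.39 to 0.73, limma adjusted p = 0.00722). It was the only one of the 48 genes called under all 13 alternative settings (adjusted p = 0.000457 to 0.0410).

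The E-type cyclin gene Ccne1, whose product acts with Cdk2 at the G1/S boundary, had 2548 in Cy3 and 3458 in Cy5 on array 1, 2287 and 2680 on array 2, and 2143 and 2654 on array 3. The channels did not overlap, and the log2 ratios of 0.44, 0.23 and 0.31 averaged 0.33 ± 0.11 (SD, n = 3 arrays, limma adjusted p = 0.0306). This value rests on the brighter of its probes, since a second probe had a mean of 0.0059.
The D-type cyclins, which link growth signals to the cycle, were examined next. Ccnd1 had 7014 in Cy3 and 9832 in Cy5 on array 1, 6084 and 7168 on array 2, and 6092 and 7276 on array 3. Its log2 ratios were 0.49, 0.24 and 0.26, a mean of 0.33 ± 0.14 (adjusted p = 0.0350). Ccnd2 had 26601 and 34819 on array 1, 21116 and 27162 on array 2, and 25029 and 28387 on array 3. Its ratios of 0.39, 0.36 and 0.18 averaged 0.31 ± 0.11 (adjusted p = 0.0347). For both genes the lowest Cy5 value lay above the highest Cy3 value. The third D-type cyclin, Ccnd3, had a mean of 0.19 ± 0.13 and did not pass (adjusted p = 0.123), with a second probe at 0.24.

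The kinase partners were not called. Cdk4 had a mean log2 ratio of 0.26 ± 0.15 (SD, n = 3 arrays, limma adjusted p = 0.0676), with 2 further probes at 0.16 and 0.11, and Cdk2 had 0.25 ± 0.15 (adjusted p = 0.0716). Both were above 0 on all 3 arrays. Cdk6 had 0.019, -0.071 and 0.11 on the 3 arrays, a mean of 0.018 (95% interval -0.15 to 0.19).
Among the other E2F genes, E2f2 had 0.14 ± 0.085 and E2f3 0.037 ± 0.11, neither called, and a dimmer probe of E2f3 had -0.11. The retinoblastoma gene Rb1, which holds E2F factors in check, went the other way. Rb1 had 7098 in Cy3 and 5951 in Cy5 on array 1, 6005 and 5124 on array 2, and 6210.3 and 5179 on array 3, without overlap between the channels. Its log2 ratios of -0.25, -0.23 and -0.26 averaged -0.25 ± 0.017 (adjusted p = 0.0450), and the call was kept under 6 of 13 alternatives. Its relative Rbl1 had 0.18, -0.16 and -0.064, a mean of -0.015 ± 0.18, with a dimmer probe at -0.25. Rb1 and E2f1, whose products bind each other, were therefore brighter in opposite channels.

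Of 17 S phase genes 1 was brighter in Cy5, 2 in Cy3 and 14 did not pass. The share called was 17.6%, near the 17.1% of all genes. Mcm5, a subunit of the replicative helicase, had 1567 in Cy3 and 2036 in Cy5 on array 1, 1179 and 1431 on array 2, and 1321 and 1542 on array 3. Cy5 was brighter within each array, although the channels' ranges over the arrays overlap. The log2 ratios of 0.38, 0.28 and 0.22 averaged 0.29 ± 0.078 (SD, n = 3 arrays, limma adjusted p = 0.0346).
The other helicase subunits had values in both directions: Mcm3 had 0.10 ± 0.026, Mcm7 0.032 ± 0.14, Mcm4 -0.0053 ± 0.18, Mcm2 -0.10 ± 0.091 and Mcm6 -0.11 ± 0.12. None of these 5 was called. Mcm4 and Mcm7 were above 0 on array 1 and below it on array 3, and Mcm4 and Mcm6 turned to 0.10 and 0.078 with median centring. Gins2, part of the GINS complex that joins the helicase, had 0.33, 0.16 and 0.092, a mean of 0.19 ± 0.12 (adjusted p = 0.114).

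Both S phase genes called brighter in Cy3 belong to the polymerase alpha-primase complex, which lays down the RNA and DNA primers of replication. Pola1, its catalytic polymerase subunit, had 1370.1 in Cy3 and 1018 in Cy5 on array 1, 1323 and 1064 on array 2, and 1343 and 1128 on array 3. The channels did not overlap, and the log2 ratios of -0.43, -0.31 and -0.25 averaged -0.33 ± 0.089 (SD, n = 3 arrays, limma adjusted p = 0.0272). Prim1, the primase subunit, had 7825 and 6324 on array 1, 6566 and 5447 on array 2, and 7377 and 5775 on array 3. Its log2 ratios of -0.31, -0.27 and -0.35 averaged -0.31 ± 0.042 (adjusted p = 0.0277), again with no overlap. Pola1 and Prim1 both lost their call with median centring and with the scanner software's processed signals.
The other subunits, named here after their values were seen, did not pass: Prim2 had -0.26 ± 0.15 (adjusted p = 0.0678) and Pola2 0.046 ± 0.15 (adjusted p = 0.707).
Of the loading factors, Cdc6 had -0.35, -0.38 and -0.023, a mean of -0.25 ± 0.20 (adjusted p = 0.0906), on a dim probe that was well above background in Cy5 on 2 arrays. Cdt1 had 0.072 ± 0.12 and Orc1 -0.053 ± 0.061, the latter well above background in Cy5 on 1 array. Gmnn, the inhibitor of Cdt1, had -0.16 ± 0.14. The sliding clamp gene Pcna was below 0 on all 3 arrays, at -0.29, -0.18 and -0.16, and missed the threshold (mean -0.21 ± 0.073, adjusted p = 0.0763). With median centring in place of loess its ratio turned to 0.092. Among genes of nucleotide supply, Rrm1 had -0.12 ± 0.059, Rrm2 -0.12 ± 0.22 and Tyms -0.11 ± 0.12. The values of Rrm2 were 0.13, -0.27 and -0.23, so array 1 differed in sign.

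Of 19 mitotic genes 16 had a mean above 0, and 1 passed the test (5.26%, against 17.1% of all genes). That gene was Ube2c, the ubiquitin-conjugating enzyme of the anaphase-promoting complex, with 4534 in Cy3 and 6466 in Cy5 on array 1, 3567 and 3956 on array 2, and 3505 and 4410 on array 3. The log2 ratios of 0.51, 0.15 and 0.33 averaged 0.33 ± 0.18 (SD, n = 3 arrays, limma adjusted p = 0.0426), and the channels' ranges over the arrays overlap. A second probe of Ube2c had 0.22. No mitotic gene was brighter in Cy3 in limma, and at an unadjusted p under 0.05 there were 4 towards Cy5 and 1 towards Cy3.
The B-type cyclin gene Ccnb2 had the highest mean, 0.36 ± 0.29, from values of 0.68, 0.098 and 0.29 (adjusted p = 0.0670). Cdc20, the activator of the anaphase-promoting complex, had 0.69, 0.12 and 0.17, a mean of 0.33 ± 0.31 (adjusted p = 0.0894). The polo-like kinase gene Plk1 had 0.57, 0.077 and 0.27, a mean of 0.31 ± 0.25 (adjusted p = 0.0749). In each of these 3 genes array 1 was highest and array 2 lowest. Without array 2, Ccnb2, Cdc20 and Plk1 passed, at adjusted p of 0.00588, 0.0169 and 0.0148.

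Ccnb1, the other B-type cyclin, had 0.16 ± 0.12 (SD, n = 3 arrays) with further probes at 0.22 and 0.22, and Ccna2, the A-type cyclin, had 0.20 ± 0.22. Their kinase partner Cdk1 had -0.45, -0.16 and 0.26, a mean of -0.12 ± 0.36, the widest spread over arrays of any gene of the list. The local Cy5 background of its probe was 311.5 on array 1, against 118 and 106.5 on arrays 2 and 3. Without background correction its mean was -0.055. The remaining probes of Cdk1 were dim and did not pass the filter. Mki67, the Ki-67 antigen used as a marker of dividing cells, was below 0 on all 3 arrays, at -0.14, -0.25 and -0.16, a mean of -0.18 ± 0.056 (limma adjusted p = 0.104). Its second probe had 0.13, -0.26 and -0.068.
The spindle checkpoint kinase gene Bub1 also lay below 0 on every array, at -0.13, -0.13 and -0.067, a mean of -0.11 ± 0.034, while its relative Bub1b had 0.066 ± 0.070. Top2a, the topoisomerase that untangles chromosomes, had 0.074 ± 0.096, and the chromatin protein gene Hmgb2 had 0.045 ± 0.038. Among genes of spindle and kinetochore proteins, Kif11 had 0.063 ± 0.11, Nusap1 0.052 ± 0.10, Cenpe 0.090 ± 0.23, Cenpf 0.010 ± 0.082 and Tpx2 0.079 ± 0.18. In each of them the arrays differed in sign, as in Cenpe at 0.33, -0.13 and 0.064. A second probe of Tpx2 had -0.093. The centrosomal kinase gene Aurka had 0.15 ± 0.11 (adjusted p = 0.186). Mki67 and Top2a, both used as markers of division, thus lay on opposite sides of 0 without either passing.

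Set side by side, the 3 groups differed in their medians on every array. The median log2 ratio was 0.36, 0.15 and 0.16 for the G1 genes on arrays 1 to 3, 0.0043, -0.095 and -0.098 for the S phase genes, and 0.28, -0.0018 and 0.097 for the mitotic genes. All genes on the array had -0.011, -0.0073 and 0.00083. The G1 median thus exceeded the S phase median by 0.36, 0.25 and 0.26, and the mitotic median exceeded it by 0.27, 0.093 and 0.19. Over the means of the 3 arrays the medians were 0.22 for G1, -0.11 for S phase, which turned to 0.039 with median centring, and 0.079 for mitosis, beside -0.0064 for all genes. Single arrays moved these medians: G1 had 0.14 without array 1, S phase -0.057 without array 3, and mitosis 0.15 without array 2. Median centring also gave 0.15 for mitosis. The order of the groups, G1 above mitotic above S phase, was the same under all 13 alternatives, of which 2 (the other variance model and the removal of very bright probes) left the medians as they were. These are descriptions of chosen genes and carry no test. Of the 48 genes, 31 had a mean above 0, against 48.8% of all genes. They included 20 that were above 0 on all 3 arrays (41.7%), and 10 were below 0 on all 3 (20.8%), against 28.9% and 30.6% of all genes. Array 1 gave the highest value for 31 of the 48.

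**Figure D2:**
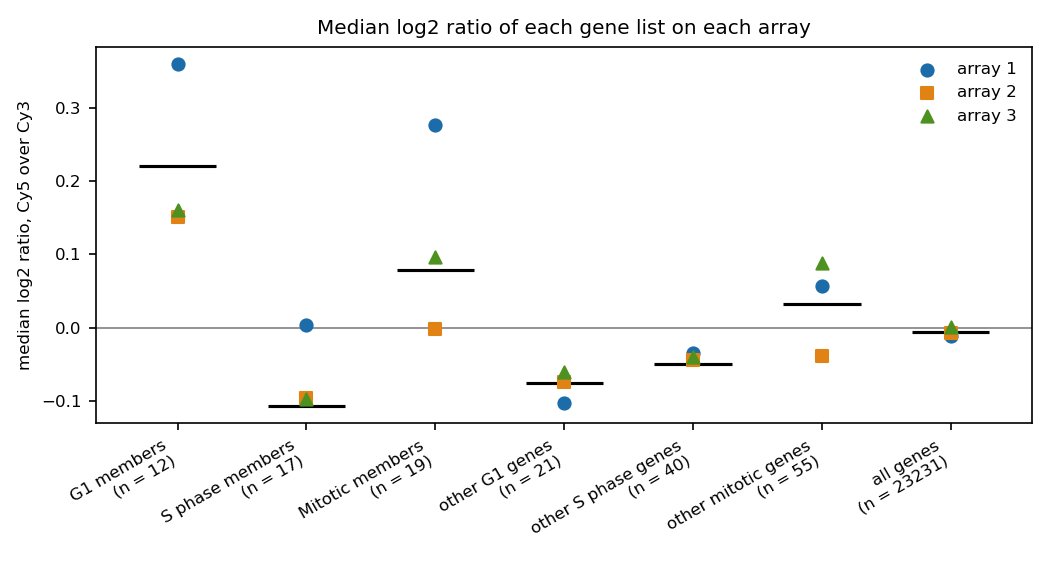
Median log2 ratio of Cy5 over Cy3 on each array (points) and over the array means (bars) for the 3 groups, for further genes of the same phases, and for all 23231 genes. The G1 group lies above 0 on all arrays, at 0.36, 0.15 and 0.16, while the S phase median of -0.11 turns to 0.039 with median centring and the other G1 genes lie between -0.10 and -0.061.

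Further genes of the same phases came from separate lists, of whose 116 measured genes 6.03% were called, against 17.1% of all genes. Of 21 other G1 genes, such as remaining E2F factors and their partners, none was brighter in Cy5 in limma (also 0 at an unadjusted p under 0.05) and 1 was brighter in Cy3. It was Mycn, a transcription factor of proliferating progenitors, with -0.43, -0.33 and -0.51, a mean of -0.42 ± 0.091 (SD, n = 3 arrays, adjusted p = 0.0142). E2f6, a repressor of the E2F family, followed at -0.19 ± 0.018 (adjusted p = 0.0818). The median of these 21 genes was -0.075, where that of the 12 G1 genes above was 0.22, and no test compares the lists.
Of 40 other S phase genes, 1 was brighter in Cy3, Mcm8 at -0.38 ± 0.12 (adjusted p = 0.0219), a helicase used mainly in repair. None was brighter in Cy5, where 2 had an unadjusted p under 0.05. Cdc45, which activates the MCM helicase, had 0.24 ± 0.046 (adjusted p = 0.0533). The median of the list was -0.049. Of 55 other mitotic genes, 4 passed towards Cy5 and 1 towards Cy3, that is 7.27% and 1.82% against 7.97% and 9.17% of all genes, with a median of 0.033. They were Fzr1, an activator of the anaphase-promoting complex, at 0.37 ± 0.19 (adjusted p = 0.0348), the centromeric histone gene Cenpa at 0.27 ± 0.082 (adjusted p = 0.0439), the kinesin gene Kif22 at 0.27 ± 0.085, Racgap1, needed for cytokinesis, at 0.29 ± 0.15, and in the other direction the kinesin gene Kif20b at -0.29 ± 0.11.
Of 7 inhibitors of cyclin-dependent kinases, 2 passed in limma towards Cy3 and 0 towards Cy5 (also 0 at an unadjusted p under 0.05). Cdkn2b had -2.04 ± 0.11 and Cdkn2a -1.91 ± 0.16, the latter with a Cy5 signal well above background on 1 of 3 arrays, and Cdkn1a had -0.22 ± 0.19.

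Several probes of a gene were measured for 11 genes, and these did not always agree. In 8 of the 11 all probes had the same sign, and in Birc5, E2f3 and Tpx2 they did not. Birc5, a subunit of the chromosomal passenger complex, had probes at -0.11, 0.098 and 0.34. The brightest of them, at 0.098 ± 0.24 (SD, n = 3 arrays), was not called, while the probe at 0.34 passed in the fit over all 32982 probes (limma adjusted p = 0.0324). The probes of Ccne1, at 0.33 and 0.0059, differed by 0.32. Those of Ccnb1 lay within 0.058 and those of Ccnd3 within 0.051 of each other. Counting probes, 10 of 62 were called, 7 of them brighter in Cy5 and 3 in Cy3, against 16.8% of all probes in either direction, 7.48% in Cy5 and 9.37% in Cy3. Which transcript forms the probes detect was not examined.

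**Figure D3:**
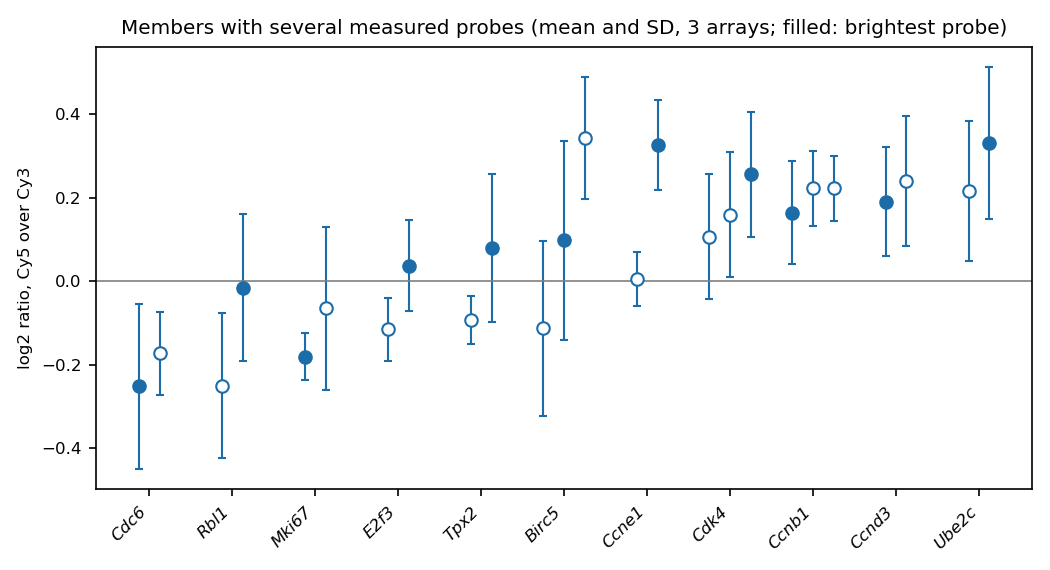
Log2 ratio of Cy5 over Cy3 of each measured probe (mean and SD over 3 arrays) for the 11 genes with several probes; the filled point is the brightest probe, which stands for the gene. The probes of Ccnb1 lie within 0.058 of each other, while those of Birc5 run from -0.11 to 0.34.

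The authors' deposited table lists 42 of the 50 genes, and none of its spots reached an adjusted p of 0.05, the smallest being 0.159. Of the cell cycle probes in the authors' deposited table, 11 had an unadjusted p under 0.05, and the smallest adjusted p among them was 0.240. In the authors' deposited table E2f1 had a log fold change of -0.61, with the sign opposite to the ratio given above. A change larger in size there, 0.65, belonged to a probe of Cdk1 that did not pass the filter here.

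Markers of other cell types varied over the arrays as well, and their part in the results above was not tested. The counts of calls that follow stand beside 7.97% of all genes in Cy5 and 9.17% in Cy3. Genes said to lead a list have its smallest limma adjusted p and not always its largest ratio. Genes typical of the neighbouring striatum had median log2 ratios of 1.06, 0.24 and 0.75 on arrays 1 to 3. Of these 11 genes 7 were brighter in Cy5, led by Ebf1 at 0.60 and Penk at 1.08. Their summed intensity was 39958 to 65285 in Cy3 and 76604 to 92927 in Cy5. Precursors of oligodendrocytes, which divide at this age, had medians of 0.22, 0.046 and 0.10. Of their 10 genes 1 was brighter in Cy5, Lhfpl3 at 0.37, and Gpr17 had 0.32 (limma adjusted p = 0.0531). The summed intensity of those 10 genes was 78111 to 94060 in Cy3 and 77515 to 88335 in Cy5. Microglia genes had medians of 0.25, -0.038 and 0.29, with 3 of 14 brighter in Cy5, led by C1qb at 0.36 and C1qa at 0.32, and summed intensities of 90003 to 97570 in Cy3 and 86836 to 95498 in Cy5. Intermediate progenitors, which divide to give neurons, had 3 of 11 brighter in Cy5 and 1 in Cy3, led by Sstr2 at 0.61 and Elavl4 at -0.44, and radial glia 3 and 3 of 14, led by Lhx2 at 0.44 and Slc1a3 at -0.38. Of 11 astrocyte genes, Gfap at -0.32 was brighter in Cy3 and Apoe at 0.35 in Cy5. Dorsal cortical neuron genes had 5 of 12 brighter in Cy5 and 2 in Cy3, led by Rorb at 1.04 and Slc17a7 at 0.36. The means of that list ran from -1.58 to 1.04. Of 11 endothelial genes 1, Cldn5 at 0.30, was brighter in Cy5, with Slco1a4 at -0.19. Erythroid genes had medians of 0.12, 0.52 and 1.67, and 2 of 7 were brighter in Cy5, Hba-a2 at 1.10 and Hba-a1 at 1.10. Their summed intensity was 125115 to 320672 in Cy3 and 337180 to 481430 in Cy5. Atoh1, which defines the dividing granule cell precursors of the cerebellum, was above background in neither channel, and of 5 other genes of those cells En2, whose Cy5 signal never rose well above background, was at least 1.93-fold brighter in Cy3, and Barhl1 had 0.15.

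**Figure D4:**
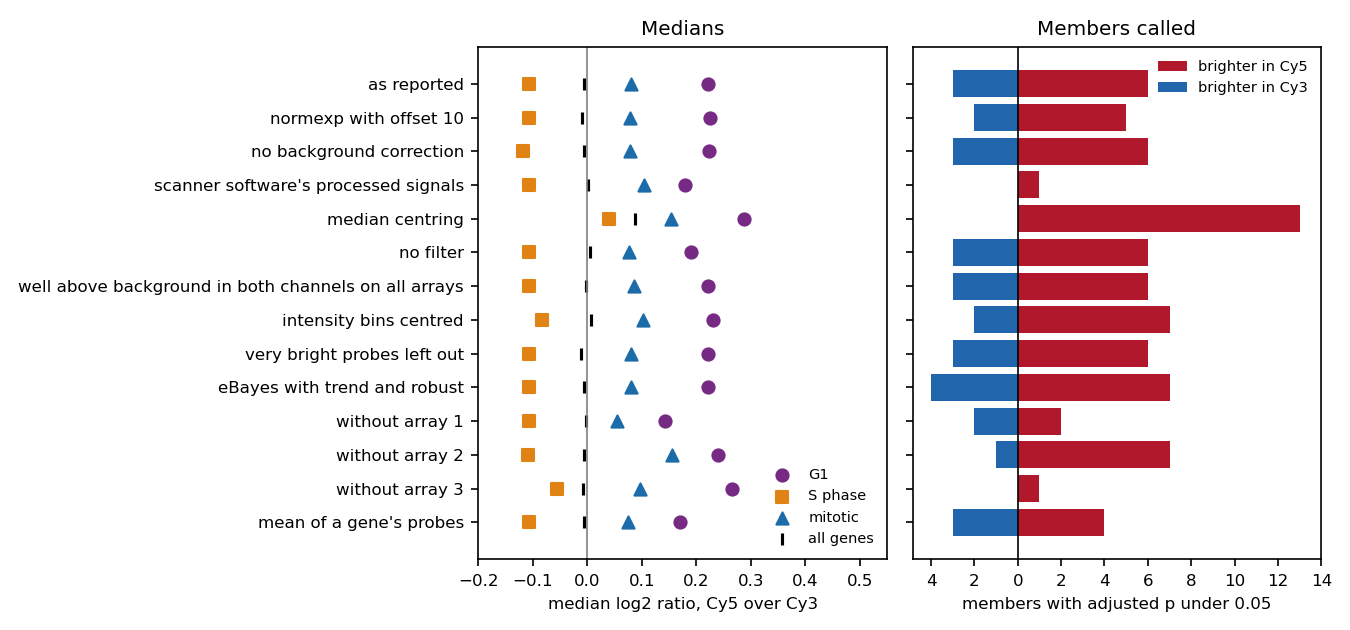
Median log2 ratio of the 3 groups and of all genes (left), and the number of the 50 genes with a limma adjusted p under 0.05 in each direction (right), as reported and under 13 other settings. G1 lies above mitotic and mitotic above S phase in every row, and the S phase median is above 0 only with median centring (0.039), where 13 genes are called in Cy5 and 0 in Cy3.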

How the data were processed

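From each pup 350 ng of dorsal cortex RNA went through 1 round of amplification and was coupled to dye, per the labels' protocols. Per the file headers, Feature Extraction 10.7.3.1 (Agilent; probe annotation on mm9) gave the deposited intensity values, which are unnormalized medians over a spot's pixels and over the ring around it, for both colours. Its own processed intensity, already corrected for background and dye, served as an alternative. The flags for spots well above background are a 0 or 1 score, per the file headers. The authors' deposited table gives log2 fold changes, a t score and p-values, made with limma per the submitters' processing notes. How it was normalized, and its direction, is not given in the sources used here.

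The mean signal is not used here, so medians were corrected with normexp (offset 50) and each array was normalized by loess in limma 3.58.1 under R 4.3.3, giving controls no weight and leaving out 4 to 6 outlier spots per array. A probe was kept if well above background in a channel on at least 2 arrays, which left 32982 of 55681 probes. Each gene was represented by its brightest probe. A limma model with only an intercept tested each log2 ratio against 0 (two-sided), and p-values were adjusted by Benjamini-Hochberg across the 23231 genes. The fit was tested on simulated data with independent genes and no dye or array effect, so this test says nothing about such effects. Values after ± are standard deviations over 3 arrays. Precision is limited by how few arrays there are.

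Of the 55681 probes, 27656 were named by RefSeq accession (GRCm38.p6 table) and 4082 by the authors' table. The other 23943 had only a systematic name, and each such name was counted as a gene. Those that passed the filter are among the 23231 genes. Of the 67 probes used, all but a probe of Gmnn were named by accession. The genes, groups, marker lists and naming rule were chosen with earlier results of these data known. The rule names every called gene, the 3 highest and 3 lowest of each group, and 2 to 4 genes of each other list with the smallest adjusted p. The alternatives were another background correction, normalization, filter, variance model or probe choice, removal of the trend with intensity or of very bright probes, and each array left out.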

Additional observations from a re-analysis of the deposited data

How the results depend on the processing

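Under the 13 alternatives, 575 of 621 values of single genes kept their status, called or not called. Another 33 lost a call, 13 gained one and 0 called values changed sign. Only the 9 called genes could lose a call: E2f1 kept it under all 13 alternatives, Ube2c under 8 and Rb1 under 6. Most of the 621 values belong to the 39 genes not called, whose sign was not always kept. Mcm4 and Rbl1 kept theirs under 8 of 13. With the scanner software's processed signals, 1105 genes were called in limma, 1 of the cell cycle genes in Cy5 (E2f1) and 0 in Cy3 (4 at an unadjusted p under 0.05), and 1 of their probes. With median centring, 13 were called in Cy5 and 0 in Cy3 (3 at an unadjusted p under 0.05), with 19 probes, and the S phase median was 0.039. Of the genes called, 83.4% were brighter in Cy5 with median centring and 46.5% after loess. Leaving out each array in turn, 1762 to 3783 genes were called, 1 to 7 of the cell cycle genes in Cy5, 0 to 2 in Cy3 and 1 to 11 of their probes. Without array 3, E2f1 alone passed, and without array 1 there remained E2f1, Ccne1, Pola1 and Prim1. Without array 2, Ccnd2, Mcm5, Prim1 and Rb1 lost their call. Ccnd2 had 0.62 with median centring against 0.31 as reported. The cause of these shifts was not tested, beyond the smaller number of arrays. No paired analysis was possible because there is no second group of arrays to pair across, and the pairing of the channels within an array is already part of the reported test.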
